A study of Homo sapiens with 6 samples.

Results

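The protein-coding olfactory receptor (OR) genes of human chromosome 11 were set against maps of DNA attached to the nuclear matrix in pluripotent stem cells. Members were the genes of the RefSeq GRCh38.p14 table on chromosome 11 whose symbol is OR followed by a family number, subfamily letters and a gene number. The rule found 171 genes, of which 168 have a position on the chromosome itself, among 19866 protein-coding genes placed on the chromosomes. The other 3 (OR8U8, OR8U9 and OR9G9) are listed at positions that break the order of the chromosome's rows. They were taken to lie on another sequence and were left out of the counts.

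Matrix-attached DNA was sequenced (MAR-seq) in 6 samples of H1, an established human embryonic stem cell line kept in mTeSR1 medium on Matrigel. The 3 groups, of 2 samples each, were untreated cells (hPSC), cells carrying an shRNA against HNRNPU (shHNRNPU) and cells carrying an shRNA against LUC (shLUC), taken here as the control for the knockdown. HNRNPU is a nuclear protein that binds both RNA and DNA. Nuclei of all groups were washed in Triton X-100 buffer, crosslinked with formaldehyde, then cut with the restriction enzymes MspI, HaeIII, RsaI, AluI, BamHI and PvuII, and the DNA that stayed with the matrix was compared with input DNA. Each group has 1 list of regions, so no spread between its samples can be given. The lists hold 40106 (hPSC), 39368 (shLUC) and 36277 (shHNRNPU) regions, of which 1997, 1984 and 1820 lie on chromosome 11. Every region is 400 bp wide with a score of 0, so a region has a position but no height, and the read depth behind it is unknown. The lists do not measure RNA, so the level of HNRNPU in the knockdown could not be checked here.

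Olfactory receptors are odorant-binding G protein-coupled receptors of the nasal sensory neurons, and each neuron expresses mainly a single OR gene. The coding sequence usually lies in a single exon, and the genes stand in tandem clusters in AT-rich DNA, silent in most other cell types. Class I receptors (families 51, 52, 55 and 56 in human) resemble those of fish, and class II receptors make up the other families. Matrix attachment regions are DNA segments that stay with the insoluble nuclear scaffold after extraction and are often AT-rich.

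Of the 168 genes, 55 were class I and 113 class II. Gene length ran from 912 to 165335 bp with a median of 1103 bp, and 92 genes were under 2 kb. OR51B5, the longest, and OR56A3 are 2 of the 3 genes over 50 kb. Sequences were taken from RefSeq (GRCh38.p14) for the 250 bases before each annotated start, which were available for 135 of the 168 OR genes. Of the members with a matrix region on the gene body, 4 are shown: OR52B6 and OR52W1, with compact bodies and a region in the hPSC list, and OR51L1 and OR8B3, each with a region shared by the shLUC and shHNRNPU lists. The sequences lie at chr11:5580627-5580876 (plus strand), chr11:6198974-6199223 (plus), chr11:4994601-4994850 (plus) and chr11:124399025-124399274 (minus). The OR8B3 start used here lies inside the annotated gene body. Capitals mark sites of the enzymes used to cut the nuclei.
OR52B6: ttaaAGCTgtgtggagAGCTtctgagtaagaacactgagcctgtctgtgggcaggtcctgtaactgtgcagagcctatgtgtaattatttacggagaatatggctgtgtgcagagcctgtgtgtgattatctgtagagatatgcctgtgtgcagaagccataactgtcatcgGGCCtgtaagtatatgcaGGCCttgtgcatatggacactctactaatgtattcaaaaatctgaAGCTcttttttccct
OR52W1: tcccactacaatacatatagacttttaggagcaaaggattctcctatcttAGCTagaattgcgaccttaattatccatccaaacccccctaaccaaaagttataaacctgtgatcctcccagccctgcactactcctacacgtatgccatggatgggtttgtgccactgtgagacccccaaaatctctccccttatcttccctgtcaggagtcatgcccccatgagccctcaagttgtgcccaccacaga
OR51L1: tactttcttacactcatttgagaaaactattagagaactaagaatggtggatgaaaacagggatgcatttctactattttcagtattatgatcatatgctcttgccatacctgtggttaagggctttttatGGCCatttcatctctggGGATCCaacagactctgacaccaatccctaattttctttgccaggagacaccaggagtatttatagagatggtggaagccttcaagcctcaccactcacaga
OR8B3: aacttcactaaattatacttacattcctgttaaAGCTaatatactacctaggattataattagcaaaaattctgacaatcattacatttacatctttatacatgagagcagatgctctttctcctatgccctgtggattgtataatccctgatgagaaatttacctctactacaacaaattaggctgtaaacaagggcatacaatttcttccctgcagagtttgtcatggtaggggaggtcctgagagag

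The stretches were 55.6% (OR52B6), 52% (OR52W1), 59.6% (OR51L1) and 64% (OR8B3) A or T. Over 138 starts of the 135 OR genes, the median AT content was 63.6%, against 37.6% at 1023 starts of other chromosome 11 genes and 42% over all 35116 starts in the table. The MspI site CCGG was found before 5.07% of the OR starts, against 69.1% of the other chromosome 11 starts and 58.5% of all starts. The HaeIII site GGCC was found before 26.8% against 83.0%, and 74.5% of all. The sites of RsaI (GTAC, 31.2% against 23.2%, and 25.5% of all) and AluI (AGCT, 63.8% against 64.7%, and 66.1% of all) were found at more similar shares. BamHI (GGATCC) sites stood before 1.45% of OR starts and 5.57% of all starts, and PvuII (CAGCTG) sites, which contain the AluI site, before 7.97% and 14.0%. The sites are palindromes, so a match counts on both strands. At least 1 site stood before 81.2% of OR starts, 98.0% of the other chromosome 11 starts and 96.1% of all. No region of any list overlapped the 250 bases before these OR starts. The same count is not given for the other starts, and the stretches are short, so this does not show that regions avoid OR starts.

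To ask how often matrix regions fell at OR genes, regions overlapping the gene body plus 10 kb on each side were counted, and overlapping windows were merged. The 168 windows merged into 90 blocks of 3.46 Mb, and 111 genes shared window bases with another member. The windows held 20 regions in hPSC, 19 in shLUC and 21 in shHNRNPU cells. These are densities of 5.78 regions per Mb (95% exact Poisson interval 3.53 to 8.92), 5.49 (3.30 to 8.57) and 6.06 (3.75 to 9.27). Intervals here and below cover counting error only, treat regions as independent, and leave out any difference between samples. The 3 lists differed by less than their intervals.

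Comparison genes were the other protein-coding genes of chromosome 11 whose length lies within the OR range, 1036 in all with a median of 16627 bp. Their windows held 23.2 regions per Mb in hPSC, 23.5 in shLUC and 21.2 in shHNRNPU cells. OR density was thus 0.249 times (interval 0.152 to 0.387), 0.233 times (0.140 to 0.366) and 0.285 times (0.176 to 0.439) that of the comparison genes. Against the 242 comparison genes whose length falls between the quartiles of the OR lengths, the ratios were 0.177, 0.172 and 0.220. Among genes under 2 kb in both sets, OR windows held 5.47, 4.37 and 4.92 regions per Mb, against 29.7, 26.5 and 21.2. The difference was thus present at matched gene length in all 3 lists.

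The difference was smaller against other DNA of the OR clusters and against comparison genes with AT-rich sequence before their starts. The clusters join OR genes that lie less than 1 Mb apart, so they also hold other protein-coding genes. Within the 7 OR clusters, the DNA outside the OR windows held 10.8, 9.33 and 10.1 regions per Mb in hPSC, shLUC and shHNRNPU cells. OR windows stood at 0.535 (0.305 to 0.901), 0.588 (0.328 to 1.01) and 0.602 (0.346 to 1.01) times that level, so the interval stayed below 1 in the hPSC list alone. The 54 comparison genes whose starts are as AT-rich as the middle OR starts (58.4 to 68.8%) held 10.1, 9.20 and 8.76 regions per Mb. Against them the ratios of all 168 OR genes were 0.573 (0.298 to 1.09), 0.596 (0.303 to 1.16) and 0.692 (0.357 to 1.35), and all 3 intervals include 1. The OR genes were not restricted to the same AT range. The 135 OR genes with a start sequence held 4.92, 4.92 and 5.62 regions per Mb. The set of 54 comparison genes was chosen after the values were seen, and its genes are longer than the OR genes (median 13419 bp). A region was found in the window of 16 of these 54 genes (29.6%) in each list. The part of AT content in the low OR density was not tested beyond these values, and the sequence of the regions was not analysed here.

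**Figure D1:**
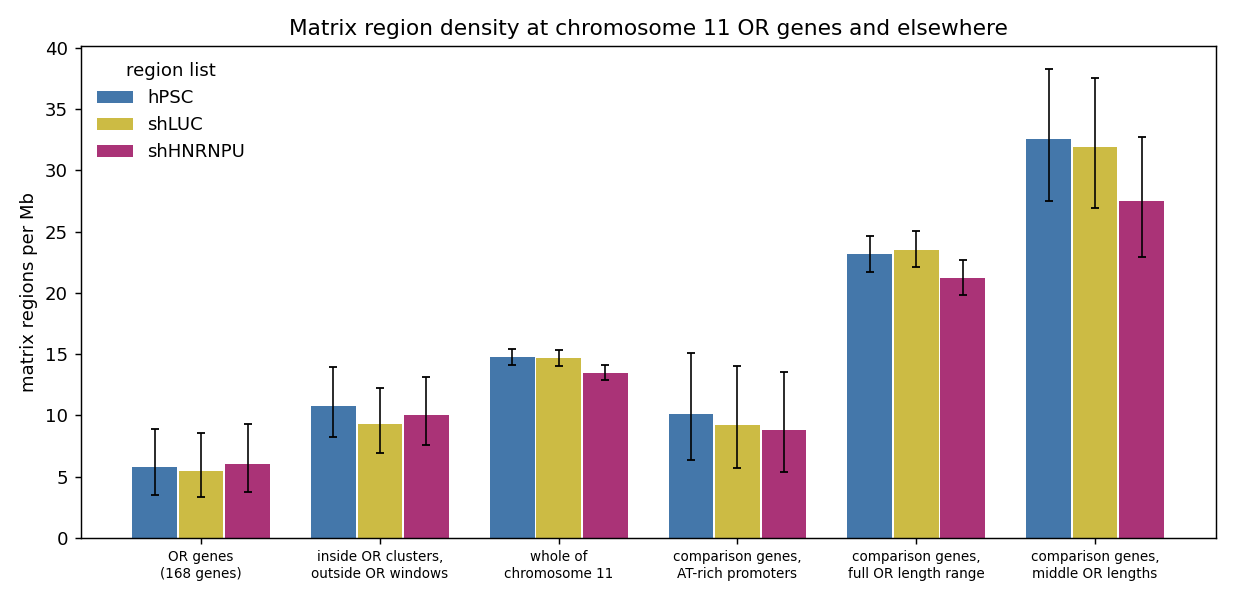
Matrix regions per Mb (vertical axis) in merged gene windows or other stretches of chromosome 11, for the hPSC, shLUC and shHNRNPU lists, with exact 95% Poisson intervals as error bars. OR windows have the lowest bars at 5.49 to 6.06 regions per Mb, comparison genes with AT-rich starts reach 8.76 to 10.1, and comparison genes over the full OR length range 21.2 to 23.5.

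The density plot sets these values side by side. Chromosome 11 as a whole held 14.8, 14.7 and 13.5 regions per Mb. OR windows made up 2.56% of its bases and held 1.00% (hPSC), 0.958% (shLUC) and 1.15% (shHNRNPU) of its regions. The 218 OR genes on 16 other autosomes, counted in the same way, had 8.89 (6.51 to 11.9), 7.54 (5.36 to 10.3) and 8.12 (5.85 to 10.98) regions per Mb, and their intervals overlap those of the chromosome 11 genes. With protein-coding gene bodies taken out of both sets of windows, the remaining OR flanks held 3.53, 5.74 and 6.63 regions per Mb, against 25.8, 18.1 and 15.8 in the comparison flanks. The ratios of the flanks were 0.137 (0.0585 to 0.274), 0.318 (0.166 to 0.557) and 0.418 (0.229 to 0.711).

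Counted by gene, 27 of 168 OR genes (16.1%) had a region in their window in hPSC cells, where 74.9% of all protein-coding genes did. In shLUC cells 23 OR genes (13.7%) did, against 69.1% of all genes, and in shHNRNPU cells 25 (14.9%), against 68%. The comparison genes stood at 71.6%, 69.6% and 66.7%. A region in at least 1 list was found for 48 OR genes (28.6%), against 87.8% of all genes, which left 120 OR genes with none. Only 3 OR genes (1.79%), against 51.9% of all genes, had a region in each list. These shares are not adjusted for gene length, and the OR genes are shorter than the comparison genes.

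Those 3 were OR52A5, OR52A1 and OR56A3, all class I receptor genes. OR52A5 (chr11:5128776-5138356) had 2 regions in the hPSC list, 1 in shLUC and 1 in shHNRNPU. Its neighbour OR52A1 (chr11:5146824-5154757) had 1, 1 and 2, and both windows share the regions between the genes. The shLUC and shHNRNPU lists hold the same region there, at chr11:5144451-5144850, and the hPSC list a region that overlaps it at chr11:5144739-5145138. OR56A3 (chr11:5942251-6022010) had 1, 2 and 1 regions. Its hPSC region (chr11:5994428-5994827) and the region shared by shLUC and shHNRNPU (chr11:5960879-5961278) lie on different parts of its body, so a region in each list did not mean the same position.

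OR51B5 (chr11:5340318-5505652), a class I gene whose annotated body spans other OR genes, had 3 regions in the hPSC list, 0 in shLUC and 1 in shHNRNPU. It was the OR gene with the most regions in any list, and it is also the longest. Below these 4 genes, which each had 4 regions summed over lists, 20 OR genes tied at 2. The 6 of them that come first by gene symbol are OR10S1, OR2AT4, OR4C3, OR4D10, OR51A2 and OR51A7. The last 5 each had 0 in hPSC, 1 in shLUC and 1 in shHNRNPU cells, and in each case the shLUC and shHNRNPU regions had the same coordinates. OR10S1 had 1, 1 and 0. No OR gene differed by 2 or more regions between the shLUC and shHNRNPU lists.

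**Figure D2:**
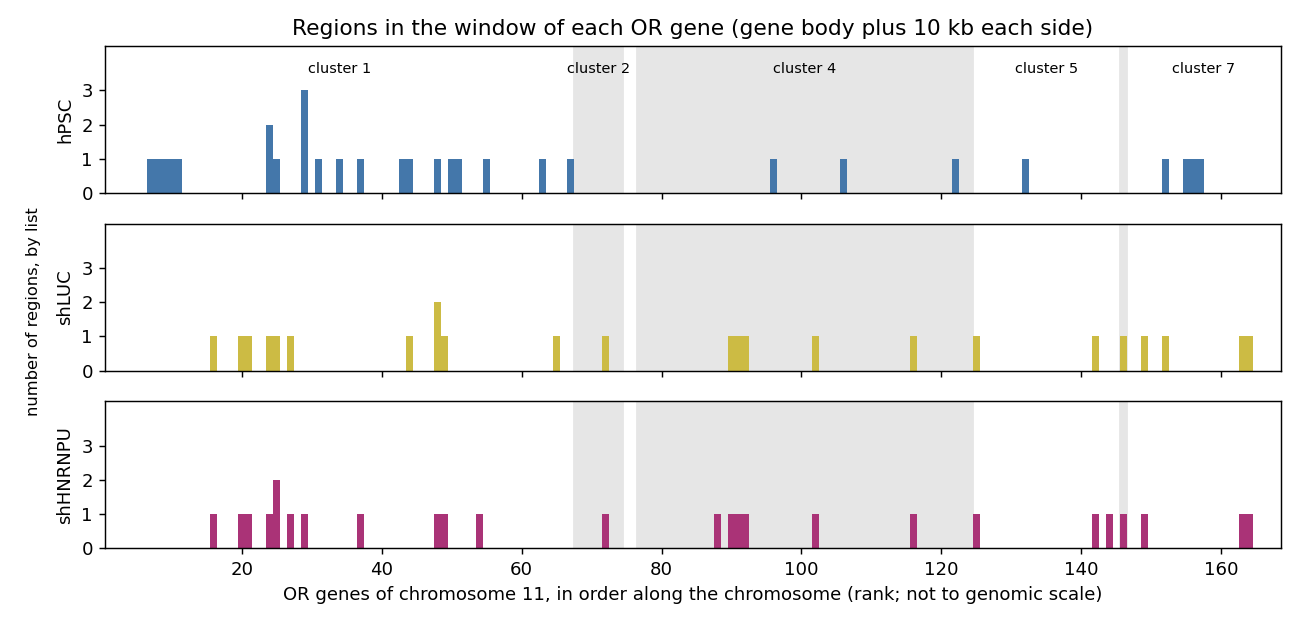
Number of matrix regions (vertical axis) in the window of each of the 168 OR genes, in order along chromosome 11 (horizontal axis, by rank), with 1 panel per list. Grey and white bands mark successive clusters of OR genes. Most genes have none, the highest bar is 3 (OR51B5, hPSC), and the shLUC and shHNRNPU panels have many bars at the same genes.

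The plot by gene order shows where the regions fell. Joined where they lie less than 1 Mb apart, the OR genes form 7 clusters. The first cluster, OR52B4 to OR10A3 (chr11:4367263-7941708), holds 67 genes, all 55 of class I among them, and had 14 regions in hPSC, 9 in shLUC and 10 in shHNRNPU cells. The next largest, OR4C46 to OR5AK2 (chr11:54603069-56989843), holds 48 class II genes and had 3, 3 and 4 regions. OR9Q1 to OR10V1 (21 genes) had 1, 2 and 3 regions, and OR6X1 to OR8A1 (22 genes) had 2, 3 and 2. OR4B1 to OR4A47 (7 genes) and the isolated OR2AT4 each had 0, 1 and 1. The pair OR4C13 and OR4C12 had none, in windows so short that up to 87.6 regions per Mb are within the interval.

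The longest stretch of an OR cluster without a region in any list was 703 kb (chr11:55066054-55769339), and it holds 9 OR genes from OR4A16 to OR5D3. In single lists the longest empty stretches were 807 kb with 15 OR genes (hPSC), 1225 kb with 14 (shLUC) and 1176 kb with 11 (shHNRNPU), and all of them lie in the OR4C46 to OR5AK2 cluster.

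Class I genes had 10.5 regions per Mb in hPSC, 6.99 in shLUC and 8.74 in shHNRNPU cells. Class II genes had 3.45, 4.74 and 4.74. The ratio of class I to class II was 3.04 (interval 1.14 to 8.57) in hPSC, 1.47 (0.515 to 4.02) in shLUC and 1.84 (0.701 to 4.78) in shHNRNPU cells, so the interval excluded 1 in the hPSC list alone. That hPSC difference depended on the window: on the log2 scale the ratio was 1.60 (0.19 to 3.10) with 10 kb flanks, 0.84 (-1.24 to 3.10) with gene bodies alone and 0.45 (-0.42 to 1.28) with 50 kb flanks, and the interval of both alternatives includes 0. All class I genes lie in the first cluster, so class and position are nearly the same split. The 12 class II genes of that cluster had 2, 1 and 0 regions, or 8.85 (1.07 to 32.0), 4.43 (0.112 to 24.7) and 0 (up to 16.3) per Mb, too few to set apart from either class.

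**Figure D3:**
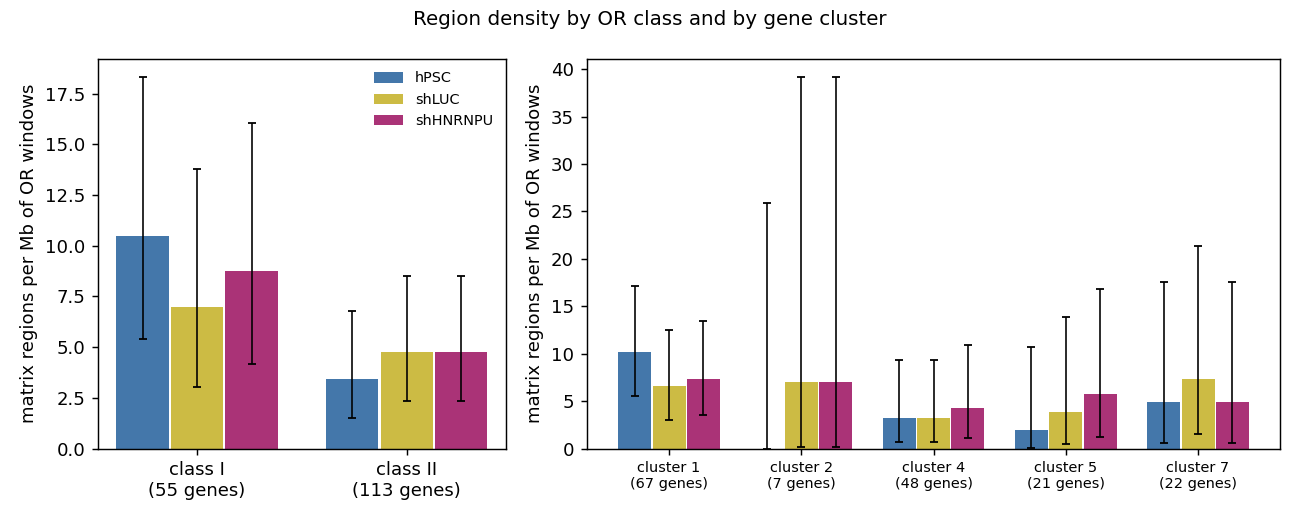
Matrix regions per Mb of OR windows (vertical axes) by receptor class (left) and in the 5 clusters of more than 5 genes (right), for the 3 lists, with exact 95% Poisson intervals as error bars. Class I exceeds class II in each list, from 6.99 to 10.5 against 3.45 to 4.74 regions per Mb, and the intervals of the 5 clusters overlap in each list.

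By family, 8, 4 and 5 of the 23 genes of family 51 had a region in hPSC, shLUC and shHNRNPU cells, 7, 3 and 4 of the 25 of family 52, and 2, 2 and 2 of the 7 of family 56. Family 10 had 7 of 16 genes in hPSC, 1 in shLUC and 0 in shHNRNPU cells. Family 8 had 0, 4 and 4 of 22 genes, family 4 had 0, 2 and 3 of 24 and family 5 had 1, 5 and 5 of 34. Over all OR genes the shares were 16.1%, 13.7% and 14.9%, and over all protein-coding genes 74.9%, 69.1% and 68%. Differences between families were not tested. Neighbouring genes of a family share regions, so the genes of a family are not independent. OR10G7, OR10G8 and OR10G9 share a single hPSC region at chr11:124029850-124030249. In both shRNA lists OR8B2 and OR8B3 share a region, as do OR5L1, OR5D18 and OR5L2. Families 1 (2 genes) and 6 (5 genes) had no region in any list.

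Few OR genes had a region on the gene body itself. The median distance from an OR gene to the nearest region came to 41.0, 44.0 and 39.7 kb for hPSC, shLUC and shHNRNPU, against 6.35, 6.43 and 8.46 kb for the comparison genes of the middle OR lengths. A region lay on the body of 8 OR genes in hPSC (4.76%), 4 in shLUC (2.38%) and 4 in shHNRNPU cells (2.38%), against 28.1%, 23.6% and 22.3% of those comparison genes. Within 100 kb, 77.4%, 78.6% and 82.1% of OR genes had a region, and within 500 kb 98.8% did in each list.

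**Figure D4:**
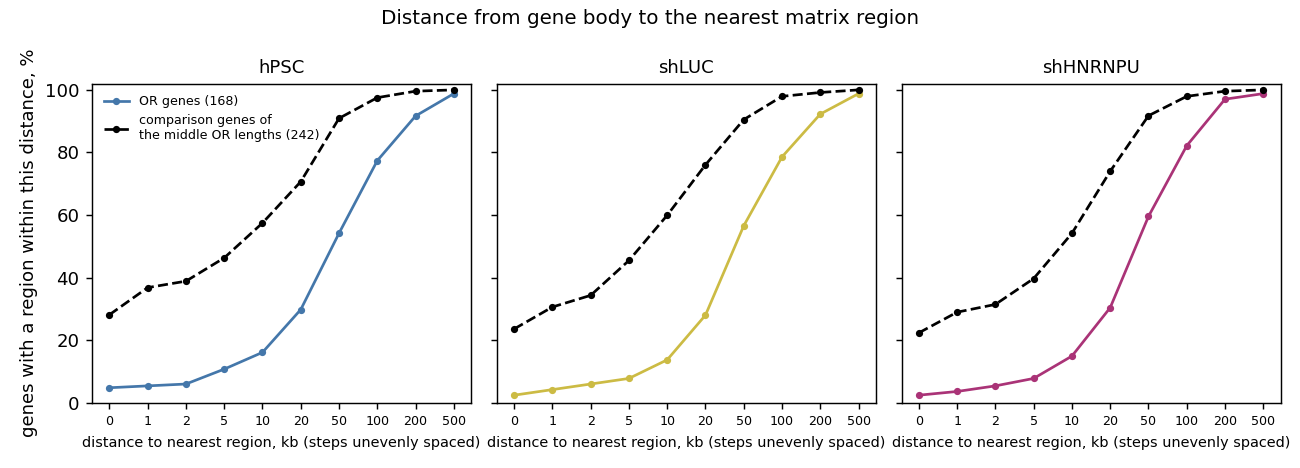
Percentage of genes (vertical axis) with a matrix region within a given distance of the gene body (horizontal axis, kb, unevenly spaced steps), for the 168 OR genes (solid) and the 242 comparison genes of the middle OR lengths (dashed), with 1 panel per list. The OR curves start at 2.38 to 4.76% at distance 0 and reach 98.8% at 500 kb, below the comparison curve at each step.

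The plot of distances shows the same order at each step. Of the regions in OR windows, 10 of 20 in hPSC (50%, exact Clopper-Pearson interval 27.2 to 72.8%) overlapped an OR body, 4 of 19 in shLUC (21.1%, 6.05 to 45.6%) and 4 of 21 in shHNRNPU cells (19.0%, 5.45 to 41.9%). OR bodies make up 29.3% of the window bases, a value inside all 3 intervals. In the hPSC list 3 of the 10 lie on OR51B5 and 1 on OR56A3. The other 6 lie on bodies under 20 kb: OR52B6, OR52W1, OR9G1, OR10W1, OR10S1 and OR10G8. On OR52B6 (chr11:5580877-5581884) the region's centre stands 452 bp after the annotated start, and on OR52W1 (chr11:6199224-6200186) it stands 410 bp after it. On OR9G1 and OR10G8 it stands 1621 and 3251 bp after the start. In shLUC cells the bodies with a region were OR51L1, OR56A3, OR8B3 and OR10S1, and in shHNRNPU cells OR51L1, OR51B5, OR56A3 and OR8B3. The OR51L1 region (chr11:5000837-5001236) is the same in both, as is the OR8B3 region (chr11:124403181-124403580).

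To ask whether regions at OR genes changed when HNRNPU was knocked down, the shHNRNPU list was set against the shLUC list. OR windows held 21 regions against 19, a ratio of 1.11 (exact interval 0.566 to 2.17), where all regions gave 0.921 and the comparison windows 0.902 (0.823 to 0.990). The interval for OR windows includes 1, so these counts set no direction of change. The smallest change that they could detect was not computed. Of the 19 shLUC regions, 15 (78.9%, 54.4 to 93.9%) were found in shHNRNPU cells, all with the same coordinates, against 70.8% of all shLUC regions and 69.5% of those in comparison windows. How the positions in each list were set is not given in the sources used here. The same coordinates therefore do not by themselves measure how far regions were kept. The 4 not found lie nearest OR52E6, OR56A3, OR5P3 and OR10S1. The 6 regions of the shHNRNPU list with no shLUC partner lie nearest OR52A1, OR51B5, OR52B6, OR52B2, OR5D13 and OR4D9. These 10 genes were named after the values were seen. By gene, 4 OR genes (2.38%) had fewer regions in shHNRNPU than in shLUC cells, against 24.6% of all genes, and 6 (3.57%) had more, against 17.4%. Most OR genes have no region in either list and cannot count in either direction.

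The hPSC and shLUC lists shared few positions in OR windows, and their counts set no direction of change. The hPSC list held 20 regions against 19, a ratio of 1.05 (0.533 to 2.08), with 1.02 over all regions. Only 2 of the 20 hPSC regions (10%, 1.23 to 31.7%) overlapped a shLUC region, against 14.0% of all hPSC regions, and 0 had the same coordinates. They lie near OR52A1 and on OR10S1. In shHNRNPU cells 1 of the 20 was found (5%, 0.127 to 24.9%), against 15.6% of all hPSC regions. By gene, 19 OR genes (11.3%) had fewer regions in hPSC than in shLUC cells, against 30.2% of all genes, and 23 (13.7%) had more, against 36.2%. A region in the hPSC list alone was found for 20 OR genes (11.9%), against 12.4% of all genes, and a region in both shRNA lists but not in hPSC for 17 (10.1%), against 9.67%. Both shares are near those of all genes when every gene is counted, but far fewer OR genes have a region in any list (28.6% against 87.8%). Among genes with a region in any list, they are 20 and 17 of 48 OR genes, against 2455 and 1921 of 17446 genes. Of these 48 OR genes, 24 had 1 region summed over the lists and 20 had 2. A gene with so few regions cannot have a region in each list, so the last comparison is not between genes with like numbers of regions. The 3 lists together hold 45 distinct regions in OR windows, of which 15 have the same coordinates in both shRNA lists. A low overlap of hPSC with the shRNA lists was thus also found over all regions. Whether the hPSC samples were processed together with the shRNA samples is not given in the sources used here, so batch and treatment cannot be told apart.

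A fixed list of 14 other genes linked to olfactory neurons was also counted, such as the channel subunit gene CNGA4, the marker gene OMP and the regulator gene LHX2. A region was found in the window of 12 in hPSC, 12 in shLUC and 11 in shHNRNPU cells, where all protein-coding genes stood at 74.9%, 69.1% and 68%. The list's median length is 55.2 kb, far above that of the OR genes. On chromosome 11, CNGA4 (10.2 kb) had 1 region in each list, and OMP, a gene of 0.492 kb, had 1, 2 and 1.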

How the data were processed

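MAR-seq of 6 H1 samples was analysed from the deposited region lists, 1 per group of 2 samples. How samples were joined and which threshold was used are not given in the sources used here. Per the labels, the submitters' processing notes name cutadapt, Bowtie2, SAMtools, MACS2, deepTools and build hg38, without versions. The deposited score is 0 and the width 400 bp in every row, so only positions were used. The labels call the molecule RNA, although the protocol isolates DNA. The paper supplied describes another experiment and gave no methods.

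Gene positions came from the RefSeq GRCh38.p14 table, and 177 protein-coding genes without a place on the ordered chromosomes were left out. Regions were counted where at least 1 bp overlapped the gene body plus 10 kb. Densities use merged windows with exact Poisson intervals, ratios use exact conditional intervals, and shares use Clopper-Pearson intervals, all at 95%. With 1 list per group no test was made. OR genes were named where all 3 lists had a region, where summed regions were highest (10 genes, ties by symbol), where a region lay on the body (up to 10), or where shLUC and shHNRNPU differed by 2 or more. Genes named otherwise were chosen after their values were seen. Members and lists were chosen with earlier results of these data known. Alternatives were the flank, the comparison set, overlapping genes, gene length and the AT content before gene starts. Scripts were tested on simulated data (Python 3.11.15, numpy 2.4.6, pandas 2.3.3, scipy 1.17.1, matplotlib 3.10.9).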

Additional observations from a re-analysis of the deposited data

How the results depend on the processing

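No paired analysis was possible because the numbered samples of a group share 1 deposited list, with no list per sample; for the same reason no sample could be left out. Of 93 values recomputed under alternatives, 76 stayed within the interval of the reported value. This does not mean that they kept their sign where that interval includes no change. The log2 ratio of shHNRNPU to shLUC regions in OR windows was 0.14 as reported, 0 with gene bodies alone and -0.06 with 50 kb flanks. With gene bodies alone (flank 0 kb), the log2 density ratio of OR to comparison genes was -1.35 in hPSC and -2.61 in shHNRNPU cells, the share of OR genes with a region was 4.76% in hPSC and 2.38% in both shRNA lists, and the log2 ratio of hPSC to shLUC regions was 1.32. With 50 kb flanks, the density ratio was -1.29 in hPSC, and the share was 54.2%, 56.5% and 59.5% in hPSC, shLUC and shHNRNPU cells. Against comparison genes with AT-rich starts, the log2 ratios were -0.80, -0.75 and -0.53. Leaving out regions on the bodies of other protein-coding genes reversed the ratio, to 0.27, 0.36 and 0.79. By construction, that setting removes every region on the comparison genes' own bodies but keeps the bodies' bases and the regions on OR bodies. With all protein-coding bodies taken out of regions and bases alike, it was -2.87 in hPSC and kept its sign in the others (-1.66 and -1.26). The AT-rich set and the last setting were chosen after seeing the data. Read depth is unknown, and few regions in OR windows limit each comparison between lists.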

Other observations

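The KRTAP5 and MS4A gene families of chromosome 11, none of whose windows overlap an OR window, were counted in the same way, and were chosen after the OR values were seen. Windows of the 11 KRTAP5 genes, which encode keratin-associated proteins of hair, held 30.7 regions per Mb in hPSC (exact 95% Poisson interval 9.97 to 71.7), 18.4 in shLUC (3.80 to 53.9) and 24.6 in shHNRNPU cells (6.70 to 62.9). Windows of the 16 MS4A genes, which encode membrane proteins of immune cells among others, held 9.15 (2.97 to 21.4), 10.98 (4.03 to 23.9) and 10.98 (4.03 to 23.9).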
